A study of Drosophila melanogaster
Mus musculus with 4 samples.

Results

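Open chromatin was compared between wild-type and Hdac3-deleted B cell precursors across 5 Mb of mouse chromosome 16 that hold the surrogate light chain genes Igll1 and Vpreb1 and the lambda light chain locus. The members are the sites of the authors' table that start from 16 Mb to below 21 Mb in the mm10 build, 208 of 69709 sites in all and of 2534 on the chromosome. Of these, 4 lie in the interval from 16.86 to 16.87 Mb, where Igll1 and Vpreb1 are placed, and 12 in the interval from 19.02 to 19.26 Mb, where the lambda locus is placed. The other 192 are the sites around them. Within each interval the sites are numbered along the chromosome, S1 to S4 and L1 to L12. No mouse annotation was used, so no site is assigned to an exon, a promoter or one of the genes.

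The assay was ATAC-seq, in which a transposase cuts accessible DNA and inserts sequencing adapters, so that reads pile up where chromatin is open. Cells positive for B220 and CD43 were sorted from bone marrow of C57BL/6 mice 8 weeks old, and 50000 of them were mixed with 5% Drosophila S2 cells, a fly cell line, before the reaction. There were 2 libraries from wild-type (Hdac3+/+) mice and 2 from Hdac3-deleted mice. The labels name neither the Cre line nor the extent of the deletion. They also do not say that libraries of a genotype came from separate animals, so a p-value reflects only how far these libraries differ. That difference may be technical between the deleted libraries, while the wild-type libraries differed in Y chromosome peaks. Markers of the cell type and the Hdac3 gene itself were not analysed here.

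B220+CD43+ cells are early B cell precursors, in which the heavy chain gene is rearranged. Igll1 encodes lambda5 and Vpreb1 encodes VpreB; together they form the surrogate light chain, which pairs with a newly made heavy chain in the pre-B cell receptor before any light chain exists. Both genes are typically active at this stage and are shut down later. The lambda locus encodes true light chains, is rearranged at a later stage, and contributes a minority of mouse light chains. Hdac3 is a histone deacetylase and the catalytic subunit of the NCoR and SMRT corepressor complexes.

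The table gives normalized reads per site, in which 1 read counts for 0.664 and 1.13 units in the first and second wild-type library and 0.999 and 1.33 units in the first and second Hdac3-deleted library; this library order holds for every set of 4 values given here. The 208 sites held 105946, 62396, 65137 and 50414 reads, with a median of 250.5, 153.5, 169.5 and 122 reads per site and a lowest site of 18, 10, 21 and 13 reads. Libraries of the same genotype differed by more than sampling noise, with a chi-square of 5.05 per degree of freedom in wild type and 4.75 after deletion. Wild-type replicate 2 stood apart in that it had 10 peaks on the Y chromosome below 50 Mb, where the other libraries had 0. Wild-type replicate 1 had 0 although it was deeper, with 70540115 tags left after filtering against 52188549. Repeats of the same animal would not differ in this way. Sex is not among the labels used, and its part in the differences between genotypes was not tested. Calls of the intervals and of the named sites (defined below) are also given without single libraries where that changes them.

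Over the whole region, 15 of 208 sites were higher and 20 of 208 were lower after Hdac3 deletion, as called by limma on log2(normalized reads + 1) over all 69709 sites with Benjamini-Hochberg adjustment at 0.05. The higher calls made up 7.21% of the region's sites, against 11.7% of all sites called higher. The lower calls made up 9.62%, against 8.90% of all sites called lower. At an unadjusted p under 0.05, 63 of the 208 sites passed (30.3%), against 33.0% of all sites. The median log2 fold change was -0.06 in the region, -0.01 over all sites and -0.005 over chromosome 16. Without wild-type replicate 1, 9 sites (4.33%) were higher and 8 (3.85%) lower, against 6.22% and 3.24% of all sites in the same fit. Without wild-type replicate 2, 14 sites (6.73%) were called in each direction, against 11.2% higher and 7.16% lower of all sites. Without Hdac3-deleted replicate 1, 12 sites (5.77%) were called in each direction, against 6.08% and 6.13%. When reads were scaled to the tags left after the authors' filtering, 13 sites (6.25%) were higher and 6 (2.88%) lower, against 8.30% and 4.24%. The share of higher calls was thus below that of all sites in each of these fits, while the share of lower calls lay above it in some and below it in others.

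**Figure D1:**
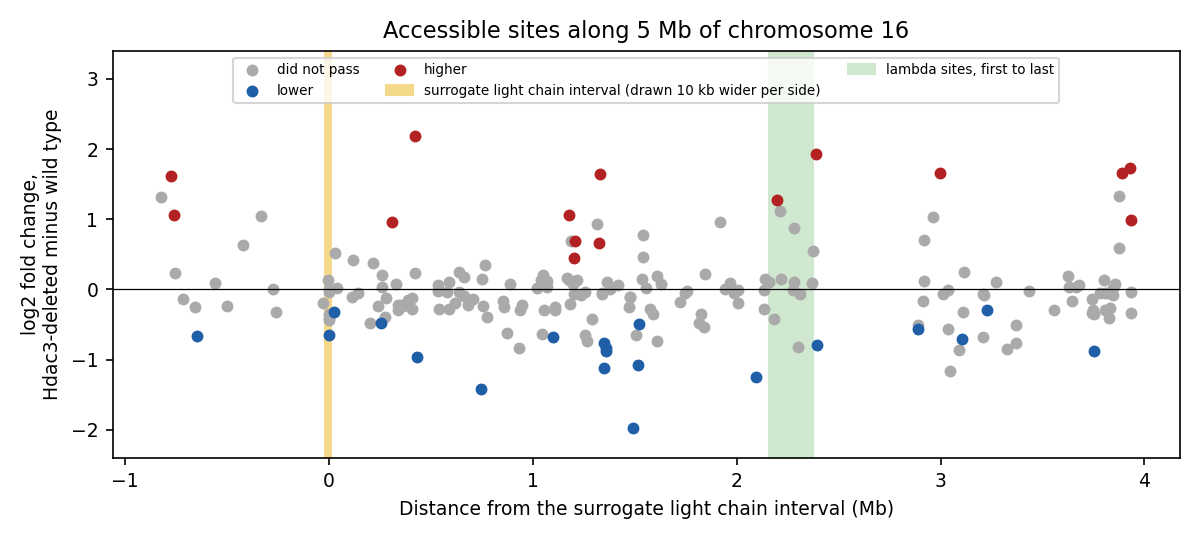
Log2 fold change (Hdac3-deleted minus wild type) of the 208 sites against the distance from the surrogate light chain interval in Mb; each point is 1 site, coloured by whether it was called higher, lower or neither. Calls of both directions are spread along the 5 Mb, with 0 higher and 1 lower in the surrogate interval and 1 higher and 0 lower in the lambda interval.

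The surrogate light chain interval was a short stretch of dense, strong sites, and 1 of its 4 sites fell after Hdac3 deletion, where 8.90% of all sites were called lower. It held 40 sites per 100 kb, against 4.16 per 100 kb over the region and 5 in the lambda interval. Its median level per base was 1.06 normalized reads, against 0.374 in the region and 0.355 over all sites. In 3 of the 4 sites both Hdac3-deleted libraries lay below both wild-type libraries, an arrangement found at 30.5% of all sites and at 33.2% of the region's, and in 1 the groups overlapped. The signs of the 4 log2 fold changes were 3 below 0 and 1 above 0, with a median of -0.40.

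S1 (chr16:16863723-16864428, 706 bp) was the strongest of the 4 and ranked 6 of 208 in level per base. Its normalized reads were 1336 and 1219.5 in the wild-type libraries and 802 and 832 in the Hdac3-deleted libraries. Both deleted libraries were thus well below both wild-type libraries, with no overlap. The means were 1278 ± 82.0 (SD, n = 2) and 817 ± 20.8 (SD, n = 2), a level 1.56-fold lower after deletion. The log2 fold change was -0.64 with a standard error of 0.11 and an adjusted p of 0.000895 (limma). S1 stayed called without each library in turn, with adjusted p from 0.000108 to 0.00543, and was not called after scaling to tags left after filtering, with a log2 fold change of -0.65 and an adjusted p of 0.184. In the authors' deposited table the fold of S1 was -0.65 on the log2 scale with an FDR of 0.0251.

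The other 3 sites of the interval did not pass the test. S2 (chr16:16865285-16865569) had 434 and 349 normalized reads in wild type and 296 and 278 after deletion, a log2 fold change of -0.44 with an adjusted p of 0.0899 (limma). S4 (chr16:16869138-16869483) had 388 and 329 in wild type and 288 and 271 after deletion, a log2 fold change of -0.35 with an adjusted p of 0.177 (limma). At both S2 and S4 the groups did not overlap, but the wild-type libraries differed from each other by more than the lower of them did from either deleted library. S3 (chr16:16865652-16865851) lies 83 bp past the end of S2 and had 157, 178, 169 and 167, values that overlapped between genotypes, with a log2 fold change of 0.01 and an adjusted p of 0.990 (limma). Peaks had been called at S1, S2 and S4 in all 4 libraries, and at S3 in replicate 1 of each genotype.

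S1 alone made up 57.7% and 58.7% of the interval's summed normalized reads in wild type and 51.6% and 53.7% after deletion. The sums over the 4 sites were 2314 and 2076 in wild type and 1555 and 1548 after deletion. The deleted libraries were close to each other and both below wild type, and the share taken by S1 was also lower in both.

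The sites next to the interval did not share one direction. The nearest on the far side (chr16:16870594-16871231, 0.594 kb past the interval's end) was a strong site with 639, 679.5, 603 and 689 normalized reads, which overlapped between genotypes, and its log2 fold change was -0.03 with an adjusted p of 0.904 (limma). The nearest on the near side (chr16:16858011-16858661, 1.34 kb before) had 182 and 184 in wild type and 126 and 151 after deletion, a log2 fold change of -0.40 with an adjusted p of 0.238 (limma). Of the next sites before it, one 4.83 kb away had 58.4, 76.0, 98.9 and 54.5 normalized reads and the other, 30.3 kb away, had 624, 606, 496 and 582. Neither passed, with adjusted p of 0.828 and 0.363 (limma).

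Farther out on the other side, a broad site 26.0 kb past the interval (chr16:16895982-16897160, 1179 bp) was lower after deletion. It had 1229 and 1119 normalized reads in wild type and 949 and 929.9 after deletion, again without overlap, and a log2 fold change of -0.32 with an adjusted p of 0.0425 (limma). This call was lost whichever single library was left out, with adjusted p from 0.0535 to 0.332. It was also lost under library totals, at 0.0589, under scaling to tags left after filtering, at 0.640, and with DESeq2, at 0.0662. The third site on that side, 32.4 kb away, had 29.9, 45.4, 78.9 and 35.9 normalized reads, which overlapped, with an adjusted p of 0.447 (limma).

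**Figure D2:**
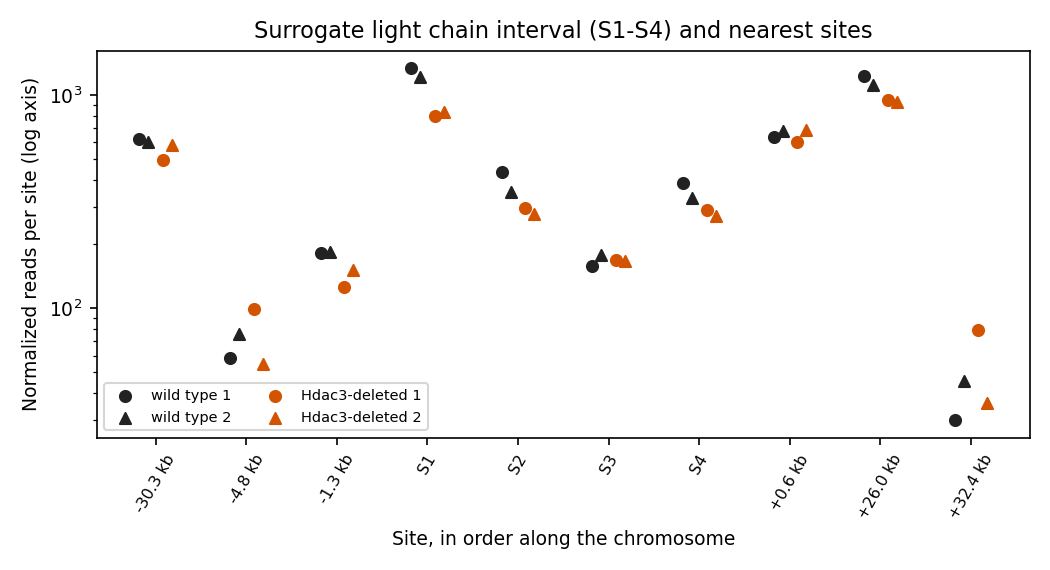
Normalized reads per site (log axis) in each of the 4 libraries at S1 to S4 and at the 3 nearest sites on either side, labelled by distance from the interval; circles are replicate 1 and triangles replicate 2. S1 is 1336 and 1219.5 in wild type and 802 and 832 after deletion, while the site 0.594 kb past the interval overlaps between genotypes.

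The mean log2(normalized reads + 1) of the 4 surrogate sites was 8.76 and 8.64 in wild type and 8.36 and 8.33 after deletion. The groups were 8.70 ± 0.09 (SD, n = 2) and 8.34 ± 0.02 (SD, n = 2). Fitted together with 5813 windows of 250 kb that held at least 3 sites, the interval was lower after deletion by a log2 difference of -0.36 with a standard error of 0.07 and an adjusted p of 0.00984 (limma). As background, 9.79% of the 250 kb windows were called lower and 16.1% higher in the same fit. The adjusted p was 0.0331, 0.000514, 0.0399 and 0.0373 when each library was left out in that order. The interval was not called after scaling to tags left after filtering, with a difference of -0.37 and an adjusted p of 0.643. Widened by 10 kb on each side to 7 sites, it gave -0.25 with an adjusted p of 0.0370, and widened by 50 kb to 11 sites, -0.15 with an adjusted p of 0.158 (limma). The 250 kb window from 16.75 Mb, which holds the interval among its 13 sites, did not pass, with -0.11 and an adjusted p of 0.306 (limma).

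The lambda light chain interval had weaker sites that did not move together; 1 of its 12 sites (8.33%) was called higher after Hdac3 deletion, against 11.7% of all sites, and 0 were called lower, against 8.90%; edgeR and DESeq2 also called 0 lower. At an unadjusted p under 0.05, 5 of the 12 passed (41.7%), against 33.0% of all sites. Its median level was 0.317 normalized reads per base, below the region's 0.374. Both deleted libraries lay above both wild-type libraries at 4 of 12 sites, against 30.1% of all sites and 15.9% of the region's. They lay below at 2 of 12 sites and overlapped at 6. The log2 fold changes were above 0 at 8 sites and below 0 at 4, with a median of 0.10.

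L3 (chr16:19066999-19067316, 318 bp) was the site called higher. It had 56.5 and 71.5 normalized reads in wild type and 174 and 137 after deletion, so the lower deleted library was still far above the higher wild-type library. The means were 64.0 ± 10.6 (SD, n = 2) and 155 ± 26.2 (SD, n = 2), a level 2.43-fold higher. The log2 fold change was 1.27 with a standard error of 0.28 and an adjusted p of 0.00524 (limma). L3 stayed called without each library in turn, with adjusted p from 0.00126 to 0.0401, and after scaling to tags left after filtering, at 0.00592. Peaks had been called there in all 4 libraries.

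L4 and L8 were weak sites at which the authors had called peaks in the Hdac3-deleted libraries alone. No site of the region had peaks in fewer than 2 libraries, so a site with peaks in 1 genotype alone is in the table through the group in which it is high. Such a choice favours a difference in that direction, and the folds and p-values of these sites are given as descriptions. L4 (chr16:19084933-19085148) had 22.6 and 29.5 normalized reads in wild type and 62.9 and 51.8 after deletion, a log2 fold change of 1.12 with an adjusted p of 0.0657 (limma), or 0.0485 with edgeR's quasi-likelihood test. L8 (chr16:19153131-19153305) had 24.6 and 31.8 in wild type and 49.95 and 54.5 after deletion, a log2 fold change of 0.88 with an adjusted p of 0.147 (limma). Both were separated by genotype without overlap, and both rested on few reads, with 34, 26, 63 and 39 recovered reads at L4. The same arrangement of peaks occurred at 8 of the region's 208 sites. L12 (chr16:19245886-19246189) was the fourth site with both deleted libraries above wild type, at 82.4, 99.8, 154 and 114, and did not pass, with an adjusted p of 0.179 (limma).

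The 2 sites with both deleted libraries below wild type were L2 and L9. L2 (chr16:19052674-19053193), the second strongest of the interval, had 394 and 363 normalized reads in wild type and 259 and 307 after deletion, a log2 fold change of -0.42 with an adjusted p of 0.101 (limma). L9 (chr16:19172212-19172476) had 122 and 81.7 in wild type and 47.0 and 66.4 after deletion, a log2 fold change of -0.82 with an adjusted p of 0.0872 (limma). L9 crossed the threshold when Hdac3-deleted replicate 2 was left out, with an adjusted p of 0.0401 (limma).

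L10 (chr16:19178850-19180077, 1228 bp) was the strongest site of the lambda interval and held 34.1% to 37.6% of its summed normalized reads. Its values of 867, 826, 777 and 839.6 overlapped between genotypes, with a log2 fold change of -0.07 and an adjusted p of 0.744 (limma). L1, L5, L6, L7 and L11 also overlapped, with log2 fold changes between -0.01 and 0.15 and adjusted p from 0.749 to 0.978 (limma). Among these, L11 (chr16:19241718-19241952) had peaks called in the wild-type libraries alone, yet its normalized reads of 39.2 and 53.3 in wild type and 59.9 and 39.9 after deletion overlapped. The sums over the 12 sites were 2306 and 2216 in wild type and 2279 and 2342 after deletion, which also overlapped.

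The 3 nearest sites before the lambda interval did not pass. At 12.3 kb before it, the values were 176, 235, 225 and 226 normalized reads, with a log2 fold change of 0.15. At 16.7 kb before it they were 115, 128, 123 and 119.6, with a log2 fold change of -0.0017, and at 17.1 kb before it 169, 103, 107 and 112, with a log2 fold change of -0.27. All 3 overlapped between genotypes, with adjusted p of 0.682, 0.997 and 0.541 (limma).

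Just past the other end, the 2 nearest sites moved in opposite directions. The first (chr16:19260321-19260507), 0.321 kb outside the interval, had 11.95 and 19.3 normalized reads in wild type and 59.9 and 61.1 after deletion, with peaks called in the deleted libraries alone, which favours the call. It was higher by a log2 fold change of 1.92 with a standard error of 0.46 and an adjusted p of 0.00842 (limma), and was not called without wild-type replicate 1, with an adjusted p of 0.0618. The second (chr16:19263195-19263627, 3.2 kb outside) had 184 and 209.9 in wild type and 93.9 and 136 after deletion, and was lower by -0.79 with an adjusted p of 0.0326 (limma).

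That second call was lost without wild-type replicates 1 and 2 and without Hdac3-deleted replicate 1, with adjusted p of 0.0679, 0.146 and 0.205, after scaling to tags left after filtering, at 0.105, and with DESeq2, at 0.0614. Beyond it lay the longest stretch of the region without a site, 496 kb, against 229 kb for the next longest. The first site after it (chr16:19760077-19761441, 500.1 kb outside) had 568 and 668 in wild type and 386 and 445 after deletion, a log2 fold change of -0.57 with an adjusted p of 0.0142 (limma). It was not called without wild-type replicate 2 or Hdac3-deleted replicate 1, with adjusted p of 0.115 and 0.0855, or after scaling to tags left after filtering, at 0.282.

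**Figure D3:**
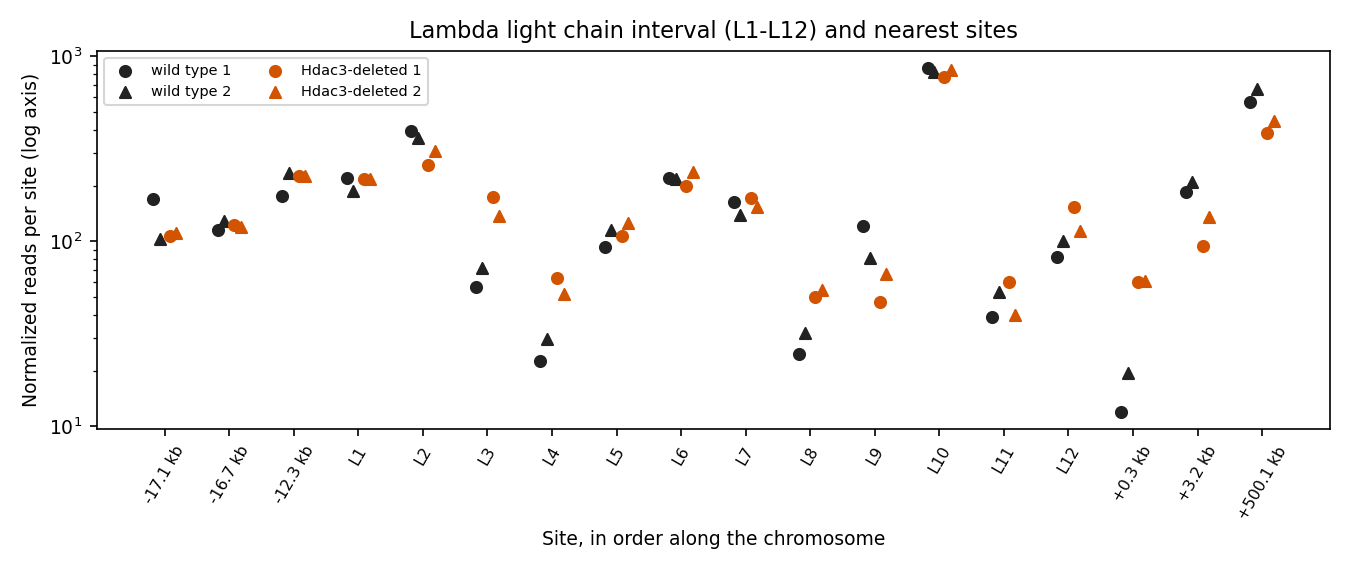
Normalized reads per site (log axis) in each of the 4 libraries at L1 to L12 and at the 3 nearest sites on either side, labelled by distance from the interval; circles are replicate 1 and triangles replicate 2. L3 and the site 0.321 kb past the interval are higher in both deleted libraries, while L10, the strongest site, overlaps between genotypes.

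The mean log2(normalized reads + 1) of the 12 lambda sites was 6.80 and 6.87 in wild type and 7.09 and 7.07 after deletion. The groups were 6.84 ± 0.05 (SD, n = 2) and 7.08 ± 0.02 (SD, n = 2). The log2 difference of 0.24 with a standard error of 0.10 did not pass, with an adjusted p of 0.114 (limma, among the 250 kb windows). Without wild-type replicate 2 the difference was 0.28 with an adjusted p of 0.185. Fitted among 1 Mb windows, which hold at least 8 sites each, the same difference had an adjusted p of 0.0410 (limma). The library values were unchanged, and the standard error was 0.07 in place of 0.10. The 12 sites include L4 and L8, whose peaks in the deleted libraries alone favour a rise, and the mean was not fitted without them. The log2 of the summed normalized reads, in which strong sites weigh more, differed by 0.03 with an adjusted p of 0.808 (limma). The window from 19 Mb, with 15 sites, did not pass either, at 0.19 with an adjusted p of 0.198 (limma).

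Each interval was then compared with the 192 sites around it within each library, which removes the scaling between libraries. A change that varies with the level of a site is not removed, and its part was not tested. The median level was 329 normalized reads in the surrogate interval, 111 in the lambda interval and 161 around them. The surrogate sites exceeded the surroundings by 1.31 and 1.11 on the mean log2 scale in wild type and by 0.91 and 0.88 after deletion. The excess was smaller in both deleted libraries, 0.89 ± 0.02 against 1.21 ± 0.14 (SD, n = 2 each), a difference of -0.32. The lambda sites lay below the surroundings by 0.66 and 0.65 in wild type and by 0.36 and 0.38 after deletion. This deficit was smaller in both deleted libraries, a difference of 0.28. The 12 lambda sites include L4 and L8, whose peaks in the deleted libraries alone favour a rise. That arrangement occurred at 6 of the 192 surrounding sites, and 19 of them had peaks in the wild-type libraries alone, which favours a drop. The lambda difference was not computed without L4 and L8. With 2 libraries against 2, the exact two-sided permutation test gave p = 0.333 for each interval, the smallest value it allows. With the 34 sites within 500 kb of the surrogate interval as surroundings the difference was -0.40, and with the 19 within 500 kb of the lambda interval it was 0.29. Widening the surrogate interval by 10 kb and 50 kb on each side reduced its difference to -0.20 and -0.11, and on the log2 of summed normalized reads the lambda difference was 0.12. Left-out libraries gave -0.41 to -0.22 for the surrogate interval and 0.27 to 0.29 for the lambda interval.

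**Figure D4:**
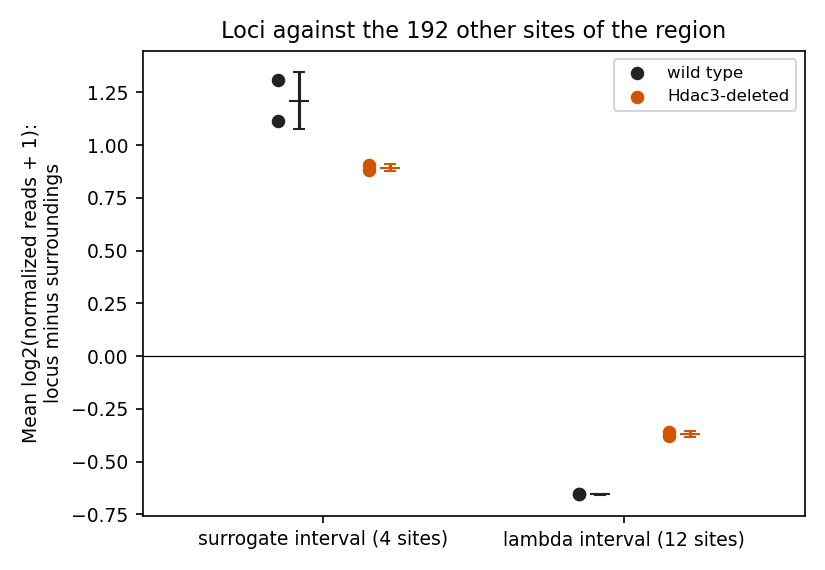
Mean log2(normalized reads + 1) of each interval minus that of the 192 sites around it, per library; points are libraries, and the horizontal mark and bars are the mean and SD of 2 libraries. Against its surroundings the surrogate interval is lower after deletion (0.89 against 1.21) and the lambda interval higher (-0.37 against -0.65). The lambda mean includes L4 and L8, whose peaks in the deleted libraries alone favour a rise.

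Among the 192 surrounding sites, 14 (7.29%) were called higher and 19 (9.90%) lower, against 11.7% and 8.90% of all sites. The largest rises were at sites with a mean level below the region's median of 161 normalized reads. At chr16:17290207-17290432, 420 kb past the surrogate interval, the normalized reads were 19.9 and 11.3 in wild type and 75.9 and 69.1 after deletion, a log2 fold change of 2.19 with an adjusted p of 0.00331 (limma). Peaks had been called there in the deleted libraries alone, which favours a rise, as at 5 of the region's 15 higher sites, while 8 of the 15 had peaks in all 4 libraries. Near the far end of the region, chr16:20798048-20798435 had 44.5 and 86.2 in wild type and 199.8 and 217 after deletion, with a log2 fold change of 1.73 and an adjusted p of 0.00120 (limma).

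A further 3 of the largest rises, from 1.64 to 1.66 on the log2 scale, were less even between replicates. The first and the last of them had peaks in the deleted libraries alone. The site chr16:18200085-18200402 had 33.9, 45.4, 181 and 85.0 normalized reads, with a log2 fold change of 1.64, and was not called without Hdac3-deleted replicate 1, at 1.097 with an adjusted p of 0.0932 (limma). The site chr16:19869494-19869931 had 33.2, 99.8, 230 and 149, with a log2 fold change of 1.66. It was not called without wild-type replicate 1, at 0.88 with an adjusted p of 0.0595, or with DESeq2, at 0.200. The site chr16:20757465-20757699 had 24.6, 18.2, 56.9 and 83.7, with a log2 fold change of 1.66, and was not called without Hdac3-deleted replicate 2, with an adjusted p of 0.0823.

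The largest drop was at chr16:18363002-18363473, where peaks had been called in the wild-type libraries alone, which favours a drop. Its normalized reads were 129 and 95.3 in wild type and 29.97 and 25.2 after deletion, a level 4.06-fold lower. The log2 fold change was -1.97 with a standard error of 0.35 and an adjusted p of 0.00137 (limma), and it stayed called without each library in turn, with adjusted p from 0.000942 to 0.0343. It ranked 206 of 208 in reads per base after averaging over the libraries.

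Next in size was chr16:17618256-17618508, also with peaks in the wild-type libraries alone, with 91.6, 101, 38.0 and 33.2 normalized reads and a log2 fold change of -1.41, which was not called without wild-type replicate 1 or 2, with adjusted p of 0.0536 and 0.0612 (limma). The site chr16:18963492-18963980, 56.0 kb before the lambda interval, had 155 and 149.7 in wild type and 59.9 and 67.8 after deletion. Its log2 fold change was -1.24 with an adjusted p of 0.00470 (limma), and it stayed called without each library. A stronger site, chr16:18387402-18388173, had 478 and 424 in wild type and 197 and 229 after deletion, with a log2 fold change of -1.08 and an adjusted p of 0.000850 (limma). At chr16:17302875-17304068 the values were 466, 345, 165 and 256, with a log2 fold change of -0.96, and the call was lost without wild-type replicate 1 or Hdac3-deleted replicate 1, with adjusted p of 0.0531 and 0.0600.

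The 250 kb window from 18 Mb, with 26 sites, held 5 higher and 4 lower calls. Its mean did not pass, with a log2 difference of 0.03 and an adjusted p of 0.841 (limma). The 4 lower calls in it were sites that follow each other directly, with starts between 18219831 and 18231027, a run chosen after its values were seen. Their log2 fold changes were -0.76, -1.12, -0.88 and -0.84 with adjusted p from 0.0104 to 0.0268 (limma), and the deleted libraries lay below wild type at each. The second of them, chr16:18220827-18221097, had peaks in the wild-type libraries alone. It had 79.7, 97.6, 43.0 and 37.2 normalized reads and was not called without wild-type replicate 1, wild-type replicate 2 or Hdac3-deleted replicate 2, with adjusted p of 0.0989, 0.207 and 0.0534, or with DESeq2, at 0.0662.

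Of the 3 strongest sites of the region, 1 was called. The second strongest, chr16:18248268-18249686, had 1707, 1639, 1701 and 1669 normalized reads, which overlapped between genotypes, and a log2 fold change of 0.01 (adjusted p 0.952, limma). The third strongest, chr16:18288831-18289811, had 1593, 1552, 1535 and 1742 and did not pass, with an adjusted p of 0.720. The strongest, chr16:20097366-20098568, had 2458 and 2667 in wild type and 1986 and 2187 after deletion, and was called lower by a log2 fold change of -0.30 with an adjusted p of 0.0143 (limma). This call was lost without wild-type replicate 2 or Hdac3-deleted replicate 1, with adjusted p of 0.132 and 0.0802, and after scaling to tags left after filtering, at 0.658.

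Sites called higher and sites called lower differed in level and width. The 15 higher sites had a median of 128 normalized reads and a median width of 388 bp, with log2 fold changes from 0.45 to 2.19. The 20 lower sites had a median of 304 normalized reads and a median width of 670.5 bp, with log2 fold changes from -1.97 to -0.30. The 173 sites not called had medians of 161 normalized reads and 392 bp. These are descriptions without a test, since the level of a site also sets how small a change can be called. The lowest count behind a higher call was 10 reads, in wild-type replicate 2, and that behind a lower call was 19 reads, in Hdac3-deleted replicate 2.

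**Figure D5:**
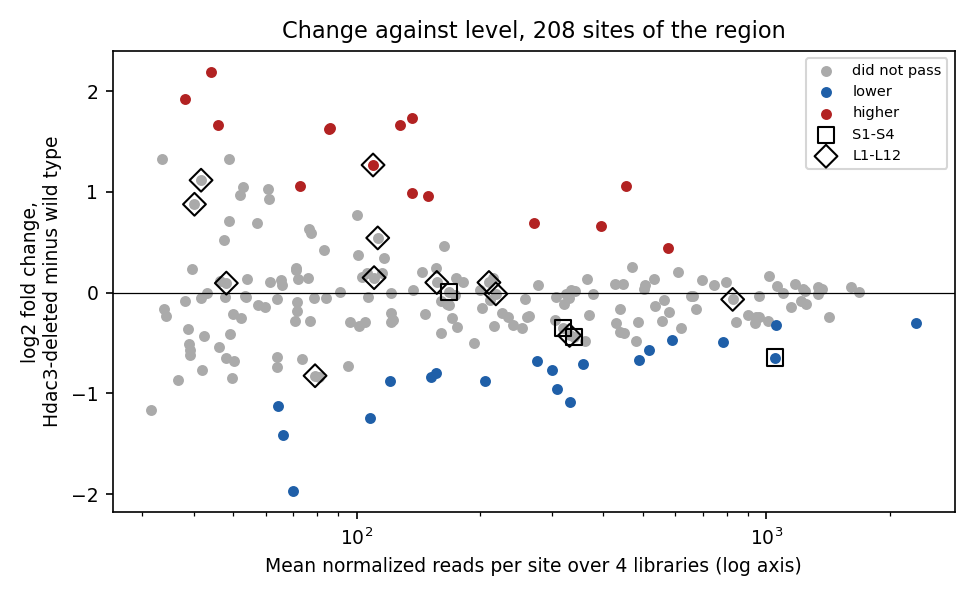
Log2 fold change (Hdac3-deleted minus wild type) against the mean normalized reads of the 4 libraries (log axis) for the 208 sites, with S1 to S4 as squares and L1 to L12 as diamonds. Higher calls have a median level of 128 and lower calls of 304, and S1 is among the strong sites called lower.

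Along the region, 18 windows of 250 kb held at least 3 sites, and 2 of them were higher and 2 lower, against 16.1% and 9.79% of all windows. The window from 20.75 Mb, with 5 sites, was higher by a log2 difference of 0.80 with an adjusted p of 0.00528 (limma), and the one from 16 Mb, with 7 sites, by 0.45 with an adjusted p of 0.0346. The window from 20 Mb, with 8 sites, was lower by -0.39 with an adjusted p of 0.0199, and the one from 18.25 Mb, with 17 sites, by -0.25 with an adjusted p of 0.0421 (limma). Neither the window of the surrogate interval nor that of the lambda interval was among them. The higher windows included sites with peaks in the deleted libraries alone, chr16:20757465-20757699 and chr16:16086775-16087138. The window from 18.25 Mb included chr16:18363002-18363473, with peaks in the wild-type libraries alone. Such sites favour a shift in the direction of the call, and the windows were not fitted without them. The windows called changed in number when single libraries were left out, and which ones were lost was not followed. Under scaling to tags left after filtering, 1 of the 18 windows was higher and 0 lower, against 236 and 127 of all 5813. On the log2 of summed normalized reads, 1 was higher and 4 lower, against 728 and 892 of all. None of the 5 windows of 1 Mb was called, against 310 higher and 153 lower of all 1848.

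The authors called peaks in each library by itself. The region held 232 and 202 peaks in wild type and 186 and 197 after deletion. Over the genome there were 77919 and 65823 in wild type and 62140 and 66507 after deletion. In both, the number was highest in wild-type replicate 1 and lowest in Hdac3-deleted replicate 1. Of the 208 sites, 142 had peaks in all 4 libraries. Peaks in the wild-type pair alone were found at 20 sites, 3 of which were called lower. The shares of all sites with these arrangements were not counted. In the surrogate interval there were 4 and 3 peaks in wild type and 4 and 3 after deletion, and in the lambda interval 11 and 10 in wild type and 12 and 12 after deletion. At a −log10 q of at least 10 the lambda interval had 10, 9, 11 and 11 peaks.

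In the authors' deposited table, 45 of the 208 sites had an FDR under 0.05, 24 higher (11.5%) and 21 lower (10.1%), against 15.3% and 9.80% of all sites there, and 29 of them were among the 35 called by limma. Of the 12 lambda sites, 3 were higher (25.0%) and 1 lower (8.33%) in the authors' deposited table, with L3, L4 and L8 higher and L9 lower, at FDR of 2.79e-05, 0.00227, 0.0244 and 0.0113. Peaks at L4 and L8 had been called in the deleted libraries alone, which favours a rise, so their values are descriptions. The same table had 1 surrogate site under that FDR, S1.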

How the data were processed

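ATAC-seq libraries of 2 wild-type and 2 Hdac3-deleted samples were analysed; the titles gave each sample's group and replicate, and columns were matched through the names of each sample's peak file. DiffBind 1.10.2, edgeR, MACS2 2.0.10, SAMtools and Bowtie2 2.2.4 are listed in the submitters' processing notes, as are the builds dm3 and mm10. Per the file headers, peaks were called per library by MACS 2.0.10.20131216 without a control, at a q cutoff of 0.001, with tags extended to 140 bp. Per the file headers, the pileup is a signal in fragments, the peak scores are −log10 p-values and q-values, and the fold enrichment is a ratio to the same library's background. The authors' deposited table gives a signal per site and library (normalized reads), log2 means and folds per genotype, and p-values with FDR. Sites are given at the start and end that table gives. Of its values, 100% were whole multiples of 1 read at a tolerance of 0.001, which gave the reads per site: 32988999, 19017456, 21177343 and 16132402 in all sites. No fly feature was found (0), so no scaling to the S2 cells was made.

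The test was limma 3.58.1 (R 4.3.3) with a mean trend on log2(value + 1) over all 69709 sites, so folds of weak sites are understated. edgeR 4.0.16 and DESeq2 1.42.0 on the recovered reads were alternatives. Interval means were fitted with the 250 kb windows, which average over differing numbers of sites. The fits were also run on data simulated from the spread of these same libraries, which does not test how far animals differ. Reads carry no molecular identifiers, so PCR copies may be among them. Named sites were those in the intervals, the 3 nearest on each side, the 6 largest calls per direction elsewhere and the 3 strongest. The members, intervals, sites and tests were chosen with earlier results of these data known. The labels do not say that a replicate number marks a shared animal or day, so no block was used; by their column letters, the table sets wild-type replicate 1 beside Hdac3-deleted replicate 2.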

Additional observations from a re-analysis of the deposited data

How the results depend on the processing

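Of the 35 called sites, all kept their call under DESeq2 size factors, TMM factors, a pseudocount of 10, edgeR and the replicate block, 34 under library totals and 28 under the DESeq2 Wald test. Only 18 kept it when reads were scaled to tags left after filtering, and 17 or 23 without the first or second wild-type library and 20 or 28 without the first or second deleted one; in none did the sign change, and the cause was not tested. With left-out libraries, in which the lone library is assumed to vary like the others, 9 to 15 sites were higher and 8 to 22 lower. The calls among all sites also changed in number between these left-out fits. The region's share of higher calls was below that of all sites in each such fit. Its share of lower calls was above that of all sites in some and below it in others. At an adjusted p under 0.01 with all libraries, 8 (3.85%) were higher and 7 (3.37%) lower, and the share of all sites at that threshold was not counted. Under scaling to tags after filtering 6 (2.88%) were lower, against 4.24% of all sites. The surrogate interval lost its call under that scaling (-0.37) and when widened by 50 kb (-0.15). The lambda interval gained a call among 1 Mb windows, where its difference was unchanged (0.24) and the standard error smaller. The lambda mean includes L4 and L8, whose peaks in the deleted libraries alone favour a rise.

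The replicate block gave 16 higher (7.69%) and 21 lower (10.1%) sites, against 11.6% and 8.76% of all sites. It gave adjusted p of 0.0101 for the surrogate and 0.192 for the lambda interval (limma). Same-numbered libraries deviated with a correlation of -0.104 over all sites. Crossing the numbers follows the table's column letters and was chosen after seeing the data. It gave 22 higher (10.6%) and 32 lower (15.4%) sites in the region, against 15.2% and 12.6% of all sites. Calls thus became more frequent among all sites too, from 11.7% and 8.90% without a block. The region's calls included 2 higher and 2 lower sites in the lambda interval and 2 lower in the surrogate interval.

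Of 504 values at the 42 named sites under these alternatives, 442 kept their sign and side of the threshold, 32 lost a call and 2 gained one. Another 28 changed sign, at 14 sites of which 0 had been called. With left-out libraries these sites ranged, on the log2 scale, from -0.083 to 0.094 (S3), -0.021 to 0.22 (L1), -0.0021 to 0.30 (L5), -0.13 to 0.11 (L6), -0.012 to 0.21 (L7) and -0.19 to 0.38 (L11). The sites beside the surrogate interval ranged from -0.29 to 0.56 (4.83 kb before), -0.13 to 0.065 (0.594 kb past) and -0.038 to 1.08 (32.4 kb past). Those before the lambda interval ranged from -0.63 to 0.081 (17.1 kb), -0.080 to 0.077 (16.7 kb) and -0.059 to 0.35 (12.3 kb). The second strongest site and the third ranged from -0.019 to 0.040 and from -0.035 to 0.15. Other sign changes were under scaling to tags after filtering (S3 -0.0050, second strongest site -0.00072), under library totals (L6 0.018) and, 16.7 kb before the lambda interval, under DESeq2 size factors (0.0017), TMM factors (0.0083), library totals (0.028), edgeR (0.011) and DESeq2 (0.0034). With 2 libraries per genotype and few reads at weak sites, precision is limited.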
